A study of Mus musculus with 20 samples.

Results

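Membrane traffic genes were followed in mouse skeletal muscle: the Rab, Arf and Arl small GTPases, the Vps and Snx (sorting nexin) genes of endosomal sorting, the subunits of the COPI vesicle coat, and the Sec genes of the COPII vesicle coat and of protein entry into the endoplasmic reticulum (ER). Members were chosen by name and not by measured values, although earlier results of these data were known. A probe set was a member if its single gene symbol in the platform annotation began with Rab, Arf, Arl or Sec and a digit, began with Vps or Snx, or lay between Copa and Copz2, the Cops genes excepted. This gave 171 probe sets for 111 of the 6603 genes that had a probe set of their own. A probe set was tested if its mean over all arrays lay outside the lowest 30%, which 130 member probe sets in 89 genes did. The 22 genes with no tested probe set were Arf2, Arl14ep, Copg2, Rab29, Rab2b, Rab31, Rab34, Rab38, Rab3d, Rab3gap2, Rab40c, Rab5b, Rab6b, Sec22a, Sec24d, Sec61a1, Snx11, Snx14, Snx16, Snx21, Snx22 and Vps25. Some members carry the name without the function: Vps72 belongs to a chromatin complex, and Rab11fip5, Rab3ip, Rab3gap2, Arl2bp and Arl14ep are partners or regulators of the GTPases.

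RNA from 20 muscles was measured on Affymetrix arrays, in 5 groups of 4. All mice were C57BL/6 females aged 14 weeks. Gastrocnemius (in the calf) and triceps (in the upper fore limb) came from 4 mice carrying a mutant human SOD1 gene (SOD1G93A, shortened to SOD1), a model of amyotrophic lateral sclerosis at a symptomatic stage, and from 4 non-transgenic mice (NTg). The fifth group was gastrocnemius after nerve injury: the sciatic nerve was crushed for 30 s at 12 weeks and the muscle taken 2 weeks later, as a control for denervation. Neither the genotype of the crushed mice nor the promoter of the transgene is given in the sources used here. A sham operation was not analysed here. The titles call the arrays biological replicates, and nothing in the labels says which arrays share a mouse. In whole muscle, fewer cells of a type and less RNA per cell cannot be told apart.

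The arrays were alike in scale, with medians between 6.61 and 6.76 on the log2 scale, and all 12 skeletal muscle fibre markers were measured and tested. Crush replicate 4 stood apart from its group: its mean Pearson correlation with the other arrays of its group was 0.917, against 0.939 or more for each of the other 19 arrays. The summed linear signal of the denervation markers (Chrna1, Myog and others, 11 measured) was 577 to 703 in NTg gastrocnemius and 2476 to 8134 in SOD1 gastrocnemius. It was 726, 904 and 948 on crush replicates 1 to 3 and 10315 on crush replicate 4. In triceps it was 489 to 706 in NTg and 1577 to 9282 in SOD1 mice.

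Cells move proteins and lipids between compartments in coated vesicles and tubules. The COPII coat buds vesicles from the ER, the COPI coat returns them from the Golgi, and the Sec61 channel feeds new proteins into the ER in the first place. Rab GTPases give each compartment its identity and recruit tethers and motors, while Arf and Arl GTPases recruit coats and act at the cell surface. Retromer and sorting nexins send cargo back from endosomes, and the ESCRT complexes sort cargo into multivesicular bodies for lysosomal breakdown. In muscle these routes carry, among others, acetylcholine receptors to and from the neuromuscular junction and the glucose transporter GLUT4 to the surface.

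SOD1 gastrocnemius differed from NTg gastrocnemius in a few members of several routes, in both directions. Arf6, Rab5a, Copz2, Arf4, Vps4b, Vps37c and Snx17 rose, and Rab2a, Sec61b, Rab10, Rab7, Vps37a and Snx3 fell. In all, 15 of the 130 tested member probe sets were called (limma, Benjamini-Hochberg adjusted p under 0.05 over all 7523 tested probe sets), 8 higher and 7 lower. That is 11.5% of the members against 12% of all tested probe sets (5.97% higher, 6.02% lower). This share lay near the background, so the count of this fit says nothing particular about membrane traffic. With the lowest 60% of probe sets left out, 15 of 66 members were called (22.7%, against 16.6% of all). Whether these shares differ was not tested. The arrays of both groups did not overlap for 41 members (31.5%), against 26% of all tested probe sets, and 44 members (33.8%) had an unadjusted p under 0.05, against 29.5%. The median log2 change of the members was -0.02, and that of all tested probe sets was 0.00.

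**Figure D1:**
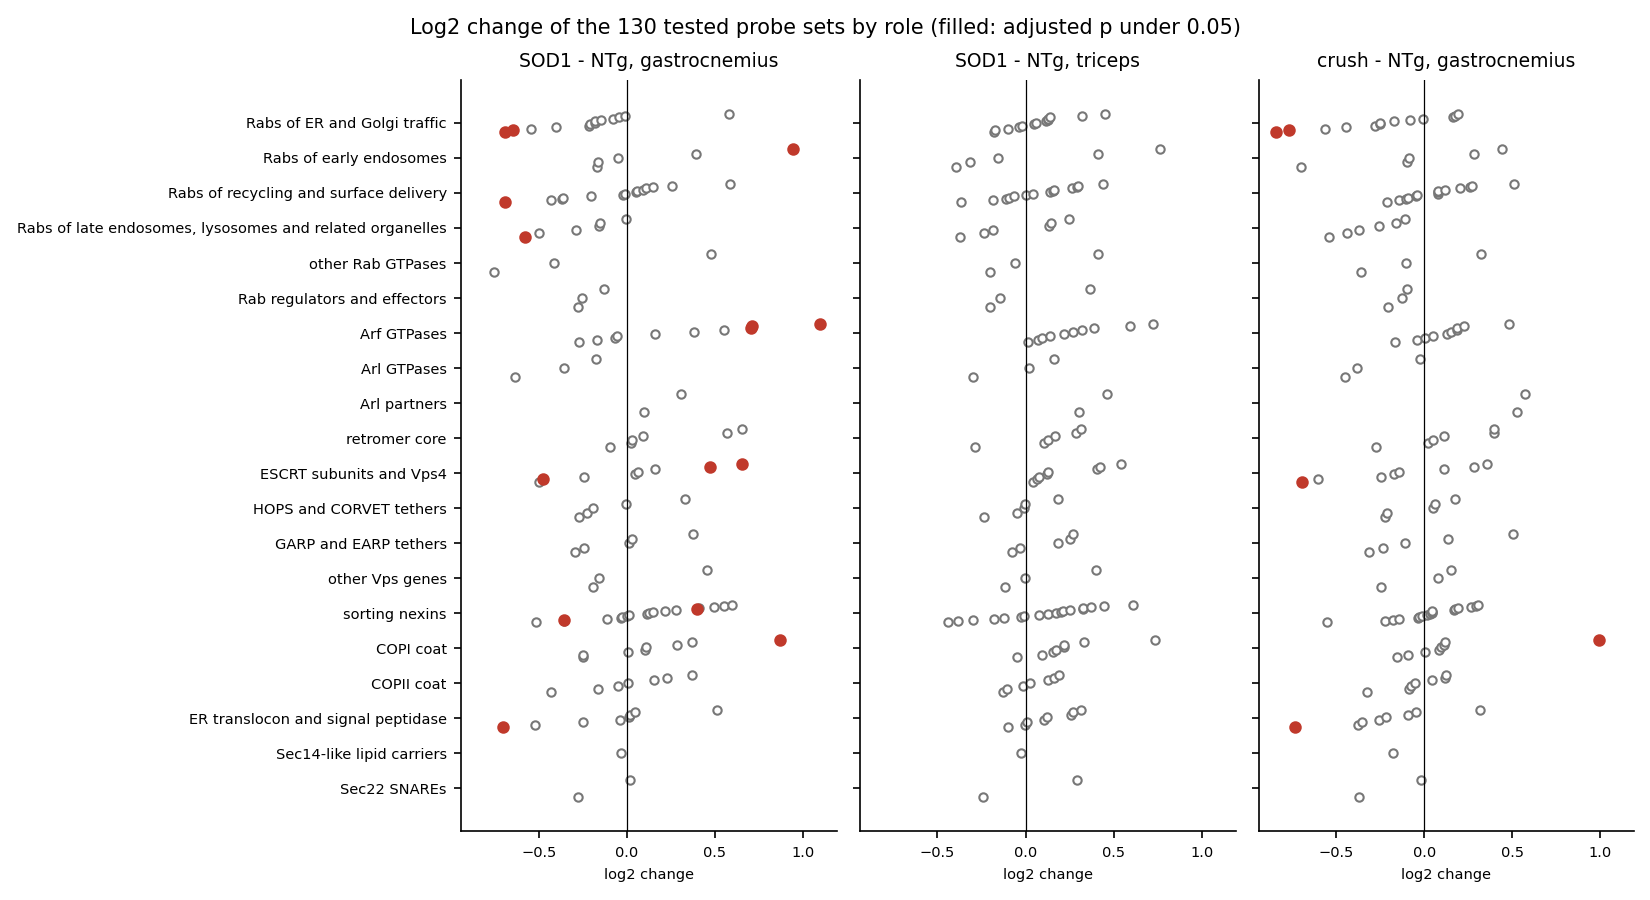
Log2 change of each of the 130 tested member probe sets (points, 1 per probe set) by role, for SOD1 minus NTg gastrocnemius, SOD1 minus NTg triceps and crush minus NTg gastrocnemius (4 arrays per group). Filled points have a limma adjusted p under 0.05: 15 in the first panel, 0 in the second and 5 in the third, spread over several roles; the Arf4 and Arf6 points at 0.71 lie on top of each other.

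Among the Rabs of ER and Golgi traffic, Rab2a, which acts on membranes between the ER and the Golgi, fell. Its brightest probe set (1418622_at) read 10.26, 10.45, 10.46 and 10.36 on the log2 scale in NTg gastrocnemius and 9.78, 9.68, 9.70 and 9.59 in SOD1 gastrocnemius. The crush arrays read 9.44, 9.38, 9.59 and 9.75. All 8 arrays of both affected groups lay below all 4 NTg arrays. The signal fell by 38.1% in SOD1 gastrocnemius (log2 change -0.69, SE 0.13, n = 4, limma adjusted p = 0.00585) and fell by 44.2% after crush (log2 change -0.84, SE 0.13, adjusted p = 0.00136). Triceps showed another picture: NTg triceps read 10.44, 9.96, 9.96 and 10.23 and SOD1 triceps 10.45, 10.42, 10.18 and 10.00, so that the groups overlapped (log2 change 0.11, 95% interval -0.15 to 0.38). A second probe set (1419945_s_at) gave -0.65 in SOD1 gastrocnemius (adjusted p = 0.00811) and -0.77 after crush (adjusted p = 0.00459). The other 3 tested Rab2a probe sets were not called in either comparison; their log2 changes lay at -0.18, -0.22 and -0.15 in SOD1 gastrocnemius and at -0.17, -0.25 and -0.56 after crush.

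The other 5 tested genes of this role, Rab1a, Rab1b, Rab6a, Rab18 and Rab33b, had no called probe set in the comparisons with NTg, and the role's median log2 change was -0.18 in SOD1 gastrocnemius and -0.25 after crush. Rab6a, which acts in traffic at the Golgi, was among the flattest members, with a range of 0.485 over all 20 arrays. Rab1a, which governs ER to Golgi transport, gave -0.04 (adjusted p = 0.841) in SOD1 gastrocnemius on its brightest probe set.

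Rab5a, the GTPase of early endosomes, rose in SOD1 gastrocnemius. NTg gastrocnemius read 8.15, 7.94, 7.93 and 8.11, and SOD1 gastrocnemius 8.47, 8.97, 9.05 and 9.41. The groups did not overlap, and the rise was 1.92-fold (log2 change 0.94, SE 0.25, n = 4, limma adjusted p = 0.0220). Crush replicates 1 to 3 read 8.15, 8.11 and 8.36, close to NTg, and crush replicate 4 read 9.28, within the SOD1 range. The crush difference as a whole was 0.44 (adjusted p = 0.327). Triceps had the same order of groups, with 8.13, 7.93, 7.84 and 8.28 in NTg and 8.38, 8.81, 8.55 and 9.50 in SOD1 mice, which did not overlap either. Its log2 change of 0.76 (SE 0.25) did not pass (adjusted p = 0.194). Rab21 and Rab22a, the other tested Rabs of early endosomes, were not called in any comparison with NTg.

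The upstream sequence of Rab5a is given because it holds 2 matches to CACGTG, a rarer form of the general E-box CANNTG. It was thus chosen after its matches were seen. It covers the 250 bases before the gene's start (RefSeq, GRCm38.p6, chr17:53478984-53479233, + strand), with the matches in capitals.
Rab5a: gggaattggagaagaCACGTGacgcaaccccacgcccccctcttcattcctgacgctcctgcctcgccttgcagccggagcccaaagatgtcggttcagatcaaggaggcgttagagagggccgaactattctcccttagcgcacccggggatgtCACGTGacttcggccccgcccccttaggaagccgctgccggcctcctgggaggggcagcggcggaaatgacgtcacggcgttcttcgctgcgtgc
The matches lay 235 and 95 bases before the start. CACGTG, which reads the same on both strands and is also a CANNTG, occurred in 6.02% of 32851 RefSeq windows of that length. A match is a description of the letters and not of a bound site. Rab2a, Vps37a and Arf6 were not among the 93 member genes matched to a window.

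Rab10, a Rab of recycling and surface delivery, fell on 1 of its 3 probe sets. On 1429296_at, NTg gastrocnemius read 8.93, 8.75, 8.98 and 8.99, and SOD1 gastrocnemius 8.71, 8.26, 8.00 and 7.92. Crush arrays read 8.75, 9.02, 8.90 and 8.41, NTg triceps 8.87, 8.42, 8.34 and 8.50, and SOD1 triceps 8.77, 8.97, 8.66 and 8.35. Only the SOD1 gastrocnemius arrays of this probe set lay all below the 4 NTg gastrocnemius arrays (log2 change -0.69, SE 0.17, limma adjusted p = 0.0177). The brighter probe set 1453095_at gave -0.36 (adjusted p = 0.0975) and 1422664_at gave -0.37 (adjusted p = 0.0601), the same sign without a call. Of the other 7 tested genes for recycling and surface delivery (Rab4a, Rab8a, Rab8b, Rab11a, Rab11b, Rab13 and Rab14) none was called in the comparisons with NTg. Rab13, a Rab of surface delivery, came closest, with 0.58 (adjusted p = 0.0946) in SOD1 gastrocnemius and 0.51 (adjusted p = 0.205) after crush.

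Rab7, the GTPase of late endosomes and lysosomes, fell on 1 of 2 probe sets. On 1448159_at NTg gastrocnemius read 8.18, 8.04, 8.26 and 8.05 and SOD1 gastrocnemius 7.96, 7.33, 7.70 and 7.22, without overlap (log2 change -0.58, SE 0.17, limma adjusted p = 0.0326). The crush arrays read 7.97, 7.59, 7.96 and 7.53, all below the NTg arrays as well but without a call (-0.37, adjusted p = 0.221). NTg triceps read 8.29, 7.50, 8.07 and 7.82 and SOD1 triceps 7.76, 7.76, 7.77 and 7.65, inside the NTg range. Its brighter probe set 1415734_at read 9.86, 9.87, 10.27 and 9.81 in NTg and 9.70, 9.28, 9.59 and 9.25 in SOD1 gastrocnemius, which did not overlap either (-0.50, adjusted p = 0.0510). On that probe set the crush arrays read 9.49, 9.53, 9.53 and 9.11, again all below NTg (-0.54, adjusted p = 0.0660). NTg triceps read 10.04, 10.02, 10.48 and 9.71 and SOD1 triceps 9.86, 9.60, 9.88 and 9.43, with overlap. Rab9, Rab12 and Rab24, the other tested genes of late endosomes and related organelles, were not called. Neither were Rab28 (-0.41, adjusted p = 0.142, in SOD1 gastrocnemius) and Rab40b. Rab5if (-0.26, adjusted p = 0.150), Rab3ip and Rab11fip5, grouped by name as Rab regulators and effectors, were not called either.

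Arf6, the Arf of the plasma membrane and of endosome recycling, had the largest rise of all tested members in SOD1 gastrocnemius. On 1418822_a_at NTg gastrocnemius read 6.42, 6.30, 6.29 and 6.48 and SOD1 gastrocnemius 7.05, 7.22, 7.58 and 8.03. All SOD1 arrays lay above all NTg arrays, a 2.14-fold rise (log2 change 1.10, SE 0.26, n = 4, limma adjusted p = 0.0125). The second probe set (1418823_at) rose by 0.71 (adjusted p = 0.0480). Crush arrays read 6.34, 6.62, 6.82 and 7.63 on 1418822_a_at, of which the fourth lay within the SOD1 range and the first within the NTg range (log2 change 0.48, adjusted p = 0.294). In triceps, NTg read 6.39, 6.89, 6.57 and 7.06 and SOD1 7.05, 7.56, 7.21 and 8.00, overlapping by 1 array (log2 change 0.73, adjusted p = 0.217).

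Arf4, an Arf of the early secretory pathway, rose on its brightest probe set alone. NTg gastrocnemius read 7.32, 6.93, 6.95 and 6.98 and SOD1 gastrocnemius 7.19, 7.97, 7.94 and 7.93, with SOD1 replicate 1 inside the NTg range (log2 change 0.71, SE 0.22, limma adjusted p = 0.0414). The crush arrays read 7.30, 7.05, 7.50 and 7.23, NTg triceps 7.27, 7.17, 6.97 and 8.19, and SOD1 triceps 7.40, 7.69, 7.62 and 7.97. Neither of these comparisons was called, and NTg triceps replicate 4 was the highest of all 20 arrays. The other Arf4 probe sets gave -0.06 and -0.07 in SOD1 gastrocnemius. Arf1, the Arf that recruits COPI, gave -0.17 (adjusted p = 0.378), and Arf5 gave 0.55 (adjusted p = 0.0842). In triceps all 10 Arf probe sets had a log2 change above 0, with a median of 0.24, and none was called. Of the Arl GTPases, Arl3, which acts in the traffic of lipid-modified proteins, gave -0.63 in SOD1 gastrocnemius (adjusted p = 0.0629) and Arl1, a GTPase of the trans-Golgi, -0.35 (adjusted p = 0.106). Arl2bp, a binding partner of Arl2, gave 0.53 after crush (adjusted p = 0.0512).

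**Figure D2:**
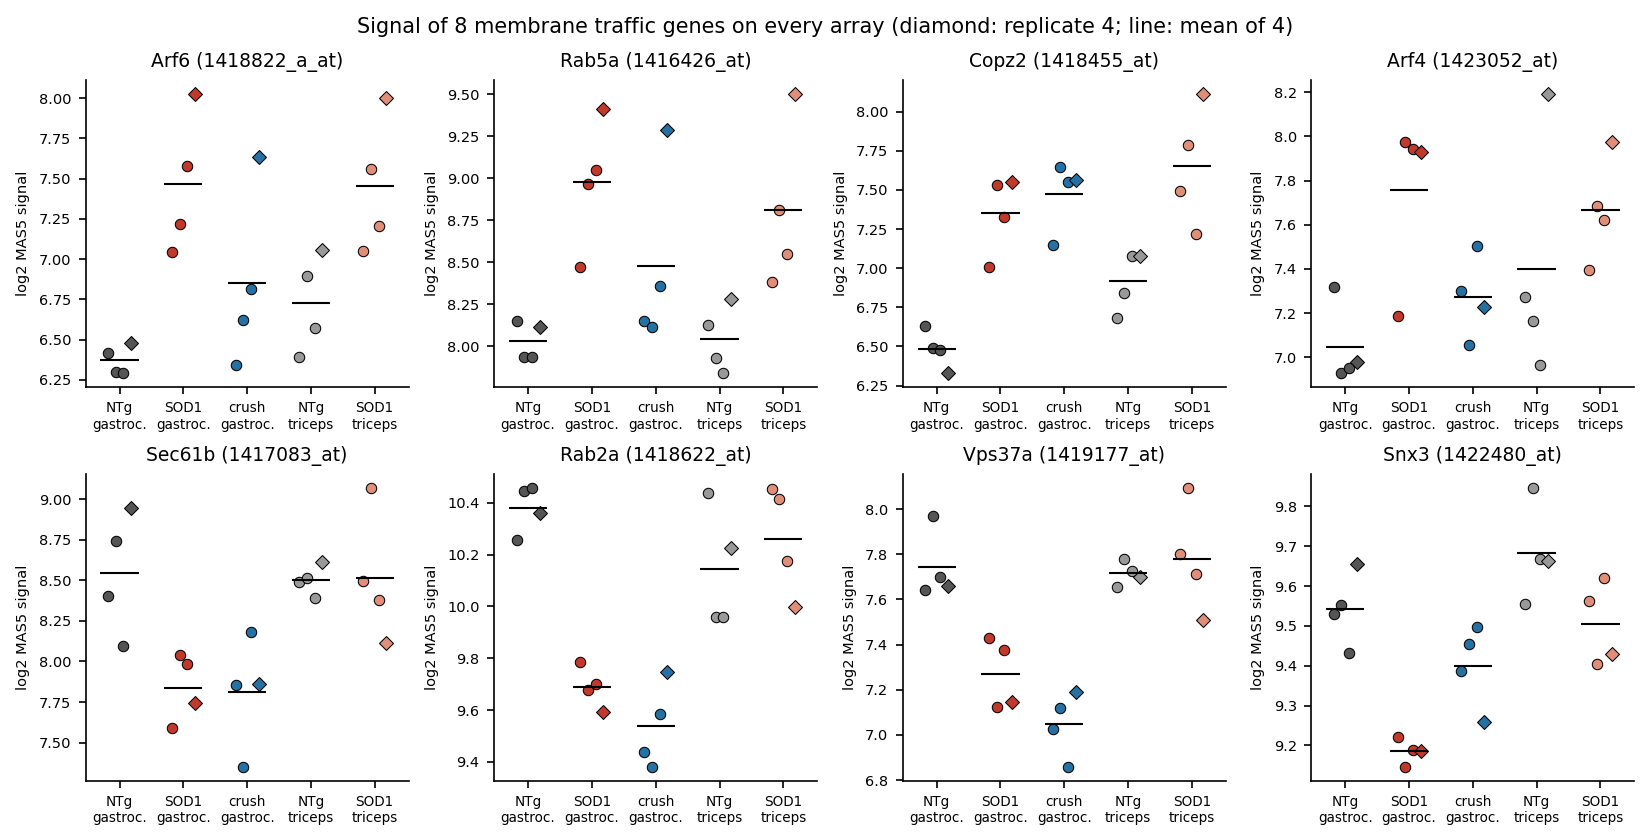
Deposited log2 MAS5 signal (y axis, scaled per panel) of 8 member probe sets on every array, by group (x axis); each point is 1 array, the diamond is replicate 4 and the line the mean of 4. Rab2a, Copz2 and Vps37a differ from NTg gastrocnemius on all 4 crush arrays, while among the crush arrays Arf6 and Rab5a are highest on replicate 4 (7.63 and 9.28).

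The COPI coat had 1 called member, Copz2, which encodes an alternative zeta subunit of the coat. NTg gastrocnemius read 6.63, 6.49, 6.48 and 6.33, SOD1 gastrocnemius 7.01, 7.53, 7.33 and 7.55, and the crush arrays 7.15, 7.65, 7.55 and 7.57. All 8 arrays of both affected groups lay above all NTg arrays. The rise was 1.83-fold in SOD1 gastrocnemius (log2 change 0.87, SE 0.17, limma adjusted p = 0.00667) and 1.99-fold after crush (log2 change 0.99, SE 0.17, adjusted p = 0.00403). Triceps read 6.68, 6.84, 7.08 and 7.07 in NTg and 7.50, 7.78, 7.22 and 8.11 in SOD1 mice, which did not overlap either (log2 change 0.73, 95% interval 0.37 to 1.10, adjusted p = 0.0876). Copz2 was the member with the smallest adjusted p in triceps. The remaining subunits had no called probe set: Copa gave 0.10, Copb1 0.29, Copb2 -0.25, Cope -0.25, Copg1 0.01 and Copz1, the main zeta subunit, 0.11 in SOD1 gastrocnemius.

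The ER translocon had 1 called member as well, Sec61b, the beta subunit of the Sec61 channel. NTg gastrocnemius read 8.40, 8.74, 8.09 and 8.94, SOD1 gastrocnemius 7.59, 8.04, 7.98 and 7.74, and the crush arrays 7.86, 7.35, 8.18 and 7.86. SOD1 and NTg arrays did not overlap, whereas crush replicate 3 lay above NTg replicate 3. The signal fell by 38.6% in SOD1 gastrocnemius (log2 change -0.70, SE 0.20, limma adjusted p = 0.0308) and fell by 39.8% after crush (log2 change -0.73, SE 0.20, adjusted p = 0.0462). Triceps read 8.49, 8.51, 8.39 and 8.61 in NTg and 8.50, 9.07, 8.38 and 8.11 in SOD1 mice, with the NTg values inside the SOD1 range (log2 change 0.01, 95% interval -0.41 to 0.43). Sec61a2, an alpha subunit, gave -0.25 and -0.52 on its probe sets in SOD1 gastrocnemius without a call. The brighter probe set of Sec61a1, the main alpha subunit, lay just under the filter (mean 5.86, against 5.88). In a fit without the filter it was 0.91 higher in SOD1 gastrocnemius (limma adjusted p = 0.0290), opposite to Sec61b. Sec62 and Sec63, partners of the channel, gave 0.02 (adjusted p = 0.952) and 0.51 (adjusted p = 0.0906), and Sec11a and Sec11c, catalytic subunits of the signal peptidase, 0.01 and 0.04. All 7 tested probe sets of the COPII coat (Sec13, Sec16a, Sec23a, Sec23b, Sec24c and Sec31a) were uncalled; Sec23a, a subunit of the inner coat, was nearest at -0.43 (adjusted p = 0.0650). The SNARE Sec22b gave -0.37 after crush (adjusted p = 0.197) and Sec14l1, named for a family of lipid carriers, -0.18 (adjusted p = 0.406).

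The 250 bases before the starts of Copz2 and Sec61b are shown because both genes changed in both affected gastrocnemius groups, in opposite directions. They come from RefSeq, GRCm38.p6 (Copz2 chr11:96849626-96849875, Sec61b chr4:47474411-47474660, both + strand), with E-box matches (CANNTG, whose reverse complement has the same form) in capitals.
Copz2: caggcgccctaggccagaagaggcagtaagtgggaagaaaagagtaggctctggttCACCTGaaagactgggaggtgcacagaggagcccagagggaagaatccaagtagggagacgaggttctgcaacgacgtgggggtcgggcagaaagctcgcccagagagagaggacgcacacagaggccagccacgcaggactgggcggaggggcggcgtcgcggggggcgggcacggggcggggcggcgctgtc
Sec61b: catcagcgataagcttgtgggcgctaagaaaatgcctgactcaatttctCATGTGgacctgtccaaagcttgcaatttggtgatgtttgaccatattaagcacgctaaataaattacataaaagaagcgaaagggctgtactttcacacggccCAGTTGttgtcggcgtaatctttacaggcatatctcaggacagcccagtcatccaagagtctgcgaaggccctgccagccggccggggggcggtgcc
Copz2 had 1 match, 194 bases before the start, and Sec61b had 2, 201 and 97 bases before it. Neither held CACGTG or CAGCTG, which are themselves forms of the general E-box. That general form occurred in 66.2% of all 32851 windows and CAGCTG in 13.0%, so such a match is common at gene starts.

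The ESCRT genes moved in both directions. Vps37a, a subunit of ESCRT-I, read 7.64, 7.97, 7.70 and 7.66 in NTg gastrocnemius, 7.43, 7.12, 7.38 and 7.15 in SOD1 gastrocnemius, and 7.03, 7.12, 6.86 and 7.19 after crush. Again all 8 affected arrays lay below all NTg arrays. The signal fell by 28.0% in SOD1 gastrocnemius (log2 change -0.47, SE 0.13, limma adjusted p = 0.0230) and fell by 38.2% after crush (log2 change -0.69, SE 0.13, adjusted p = 0.00525). Triceps read 7.65, 7.78, 7.73 and 7.70 in NTg and 7.80, 8.10, 7.71 and 7.51 in SOD1 mice, with overlap (log2 change 0.06, adjusted p = 0.821). Its second probe set (1419176_at) had the same signs without a call, at -0.50 (adjusted p = 0.0973) and -0.60 (adjusted p = 0.0850).

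Vps37c, another ESCRT-I subunit, rose in SOD1 gastrocnemius on 1426227_s_at, from 6.96, 6.76, 6.62 and 6.42 in NTg to 7.02, 7.43, 6.98 and 7.21 (log2 change 0.47, SE 0.15, limma adjusted p = 0.0400). The crush arrays read 6.42, 6.46, 6.71 and 6.60, NTg triceps 6.78, 6.90, 6.74 and 6.73, and SOD1 triceps 6.85, 7.27, 7.46 and 7.27; neither comparison was called. The brighter Vps37c probe set was not called in SOD1 gastrocnemius (0.16, adjusted p = 0.472). Vps4b, an ATPase that takes ESCRT-III apart, rose in SOD1 gastrocnemius from 6.90, 6.89, 6.57 and 6.62 to 7.05, 7.25, 7.58 and 7.71 (log2 change 0.65, SE 0.20, adjusted p = 0.0388), and the groups did not overlap. Its crush arrays read 7.26, 6.56, 7.19 and 7.09, spanning the NTg range. In triceps it read 6.92, 6.88, 7.04 and 7.58 in NTg and 7.31, 7.80, 7.44 and 8.05 in SOD1 mice (log2 change 0.54, adjusted p = 0.231), with NTg replicate 4 inside the SOD1 range. Its paralogue Vps4a gave -0.24 in SOD1 gastrocnemius (adjusted p = 0.140). Vps28 and Vps36, the other tested ESCRT genes by name, gave 0.05 and 0.06. In triceps all 8 ESCRT probe sets had log2 changes above 0, with a median of 0.12 and none called.

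Among 18 tested sorting nexin probe sets, Snx17 rose and Snx3 fell in SOD1 gastrocnemius. Snx3, which works with retromer in endosomal recycling, read 9.53, 9.55, 9.43 and 9.65 in NTg and 9.22, 9.15, 9.19 and 9.19 in SOD1 gastrocnemius, the tightest group of any shown here (SD 0.03). The crush arrays read 9.39, 9.45, 9.50 and 9.26, NTg triceps 9.55, 9.85, 9.67 and 9.66, and SOD1 triceps 9.56, 9.40, 9.62 and 9.43. Snx3 fell by 21.9% in SOD1 gastrocnemius (log2 change -0.36, SE 0.09, limma adjusted p = 0.0224) and was not called in the other comparisons with NTg. Snx17, which returns receptors of the LDL receptor family and integrins to the surface, read 9.70, 9.93, 9.67 and 9.84 in NTg and 10.11, 10.26, 10.13 and 10.24 in SOD1 gastrocnemius (log2 change 0.40, SE 0.11, adjusted p = 0.0287). After crush it read 9.79, 9.70, 9.73 and 10.06, overlapping with NTg (log2 change 0.03, 95% interval -0.20 to 0.27). NTg triceps read 9.84, 10.19, 9.89 and 10.01 and SOD1 triceps 10.02, 10.01, 9.95 and 10.27, which overlapped too. The remaining nexins, among them the retromer partners Snx1, Snx2, Snx5 and Snx6, were not called. Snx9, which takes part in endocytosis, gave -0.36 (adjusted p = 0.339) on its brighter probe set and -0.52 (adjusted p = 0.0505) on the other.

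Retromer itself had no call. Vps29, a core subunit, came nearest in SOD1 gastrocnemius (0.57, adjusted p = 0.0506), and Vps35, the subunit that carries the complex, gave 0.02 (adjusted p = 0.938). The HOPS and CORVET tethers of lysosome fusion (Vps11, Vps39 and Vps41) and the GARP and EARP tethers of the Golgi and of recycling (Vps50, Vps52, Vps53 and Vps54) had no call either. Vps41 gave -0.27 (adjusted p = 0.157) in SOD1 gastrocnemius and Vps53 gave 0.50 (adjusted p = 0.148) after crush. Vps26c gave 0.46 (adjusted p = 0.187) in SOD1 gastrocnemius. The flattest tested members over all 20 arrays were Vps52, with a range of 0.394, Snx19 (0.410) and Rab11b (0.443).

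**Figure D3:**
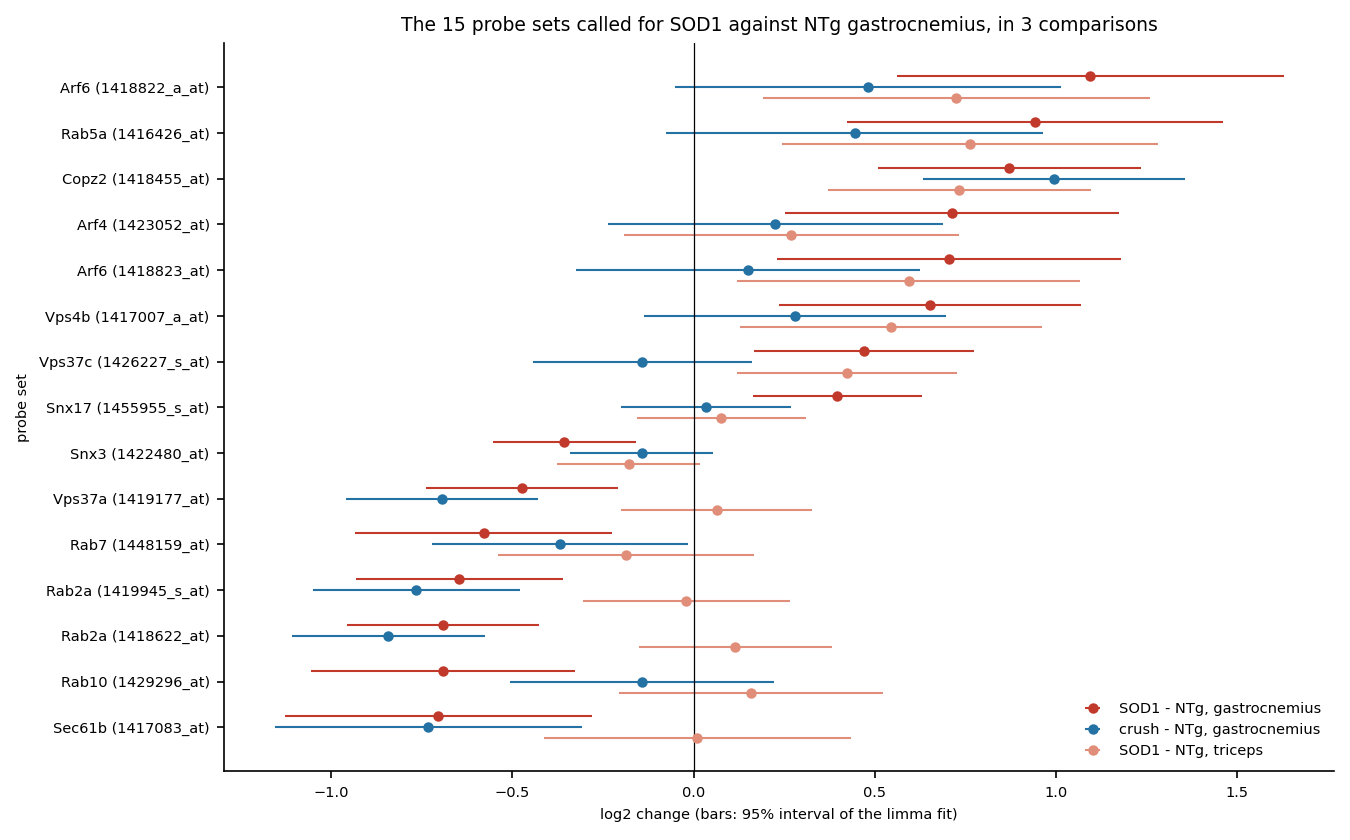
Log2 change with its 95% interval (bars, limma fit) of the 15 probe sets called for SOD1 against NTg gastrocnemius (y axis), in that comparison, after crush and in triceps. The Rab2a, Copz2, Vps37a and Sec61b intervals lie on the same side of 0 for SOD1 gastrocnemius and crush; in triceps those of Rab2a, Vps37a and Sec61b span 0.

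The crush comparison shares its NTg arrays with the SOD1 comparison in gastrocnemius, so both hold the same control values. In it 5 of 130 member probe sets were called, 1 higher and 4 lower, in Copz2, Rab2a, Vps37a and Sec61b. That is 3.85% of the members against 4.13% of all tested probe sets, again near the background (higher 1.08%, lower 3.06% of all). Arrays did not overlap for 18 members (13.8%, against 16.4%), and 24 (18.5%, against 20.7%) had an unadjusted p under 0.05. The calls of Copz2, of both Rab2a probe sets and of Vps37a held without each of the 8 compared arrays in turn (limma, highest adjusted p = 0.0271). Sec61b kept its call in 2 of 8 such fits and lost it without NTg replicates 1, 2 or 4 or crush replicates 1, 2 or 4, with adjusted p up to 0.162. Without crush replicate 4, its log2 change was -0.75 (adjusted p = 0.0549), and 7 probe sets were called (5.38%, against 5.25% of all): the Copz2, Vps37a and Rab2a probe sets above, a further Rab2a probe set (-0.38, adjusted p = 0.0327), Rab12, a Rab of recycling and lysosomal traffic (-0.61, adjusted p = 0.0285), and Vps72 (-0.50, adjusted p = 0.0446). Schwann cell markers had a summed signal of 307 to 1106 after crush against 1090 to 1496 in NTg gastrocnemius, overlapping through crush replicate 1. Of 3 tested, 1 fell, Mbp (Ngfr and S100b were under the filter). The part of these markers in the result was not tested.

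In the SOD1 comparison in gastrocnemius, Rab2a and Copz2 kept their calls without each compared array in turn. The first Arf6 probe set lost its call without SOD1 replicate 4 alone (log2 change 0.91, limma adjusted p = 0.0646). The other 11 called probe sets kept their direction but not their call in every such fit. Vps4b, Sec61b, Arf4, Rab7 and the second Arf6 probe set kept the call in 1 of 8 fits. Snx3, Snx17 and Vps37c kept it in 2, Rab5a in 3, and Vps37a and Rab10 in 5. Leaving out NTg replicates 1, 2, 3 or 4 gave 8, 6, 8 or 6 called members, and leaving out SOD1 replicates 1, 2, 3 or 4 gave 26, 6, 5 or 3. The extremes were 20% of members against 17.5% of all tested probe sets without SOD1 replicate 1, and 2.31% against 2.37% without SOD1 replicate 4. Without crush replicate 4, which enters this comparison through the shared estimate of spread, 25 were called (19.2%, against 17.8% of all), all 15 called with every array among them. Macrophage markers moved with this comparison: 7 of 9 tested rose, with a summed signal of 1551 to 2318 against 839 to 1095 in NTg gastrocnemius, while Cd68 and Tyrobp were under the filter. All 6 tested denervation markers rose too, with a median log2 change of 3.34 (Chrng, Myh3, Myh8, Ncam1 and Runx1 under the filter). Their part in the changes of the traffic genes was not tested.

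In triceps 0 of 130 members were called by limma, against 0.239% of all tested probe sets, and 18 had an unadjusted p under 0.05 (13.8%, against 15.2%). Arrays of SOD1 and NTg triceps did not overlap for 5 members (3.85%, against 6.99%). By the brightest probe set per gene the largest differences were those of Rab5a, Copz2 and Arf6, given above, and on the lower side Snx1 (-0.38, adjusted p = 0.291), Rab7 (-0.37, adjusted p = 0.298) and Rab4a, a Rab of fast recycling (-0.37, adjusted p = 0.500). Dimmer probe sets of Snx9 (-0.44, adjusted p = 0.244) and Rab21 (-0.39, adjusted p = 0.357) lay lower still. Members with a log2 change above 0 made up 65.4% (85 of 130), against 51.8% of all tested probe sets, and their median was 0.12, against 0.01. The summed signal of smooth muscle and pericyte markers was 1725 to 1827 in SOD1 and 1994 to 2448 in NTg triceps, without overlap, and 0 of 4 tested were called. Adipocyte markers summed to 7957 on NTg triceps replicate 4 and 7730 on SOD1 triceps replicate 3, against 1916 to 3204 on the other 6 triceps arrays. Skeletal muscle fibre markers had a median log2 change of -0.64, with 0 of 12 tested called. Denervation markers had a median of 2.40, yet 0 of 6 tested were called, and 5 rose without crush replicate 4. The part of these markers was not tested. Copz2 was the only member called without crush replicate 4 (limma adjusted p = 0.0356), 0.769% of the members against 2.22% of all tested probe sets. It was also the only one without SOD1 triceps replicate 3 (log2 change 0.88, adjusted p = 0.0442), 0.769% against 0.279%. Snx4, a nexin of recycling, was the only member called without NTg triceps replicate 4 (0.81, adjusted p = 0.0388), 0.769% against 0.332%.

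The test of the difference between the SOD1 effects of both muscles called 0 members (0% of all tested probe sets), with 18 members (13.8%) at an unadjusted p under 0.05 against 9.44% of all. Both muscles are described as coming from 4 mice of each genotype, and as the labels do not say which arrays share a mouse, the fit treated the 16 arrays as independent. By the brightest probe set per gene the largest differences were those of Rab2a (-0.81, SE 0.18, limma adjusted p = 0.386) and Sec61b (-0.72, SE 0.29, adjusted p = 0.488), both lower in gastrocnemius. The other tested Rab2a probe sets gave -0.63, -0.31, -0.04 and -0.11. Dimmer probe sets of Rab18 (-0.86, adjusted p = 0.490), Rab10 (-0.85, adjusted p = 0.395) and Sec61a2 (-0.84, adjusted p = 0.412) lay lower than the brightest Rab2a probe set. Without NTg triceps replicate 1, 4 members were called (3.08%, against 0.452% of all): Rab2a (-0.90, adjusted p = 0.0286) and 1 probe set each of Rab18 (-1.21), Sec61a2 (-1.06) and Arf1 (-0.72).

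SOD1 against crush gastrocnemius gave 0 called members as well (0% of all tested probe sets), with 14 at an unadjusted p under 0.05 (10.8%, against 12.5%) and 9 without overlap (6.92%, against 5.48%). Arf6 differed by 0.61 (95% interval 0.08 to 1.15, limma adjusted p = 0.339) and Snx10 by 0.51 (95% interval -0.17 to 1.18, adjusted p = 0.530). Rab2a differed by 0.15 (95% interval -0.12 to 0.42) and Copz2 by -0.12 (95% interval -0.49 to 0.24). Without crush replicate 4, 9 member probe sets were called (6.92%, against 8.03% of all). Higher in SOD1 were Rab5a (0.77, adjusted p = 0.0372), both Arf6 probe sets (0.87 and 0.78), Vps37c (0.63) and Snx17 (0.44), and lower were 2 Rab10 probe sets (-0.51 and -0.67), Rab28 (-0.54) and Rab4a (-0.63).

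**Figure D4:**
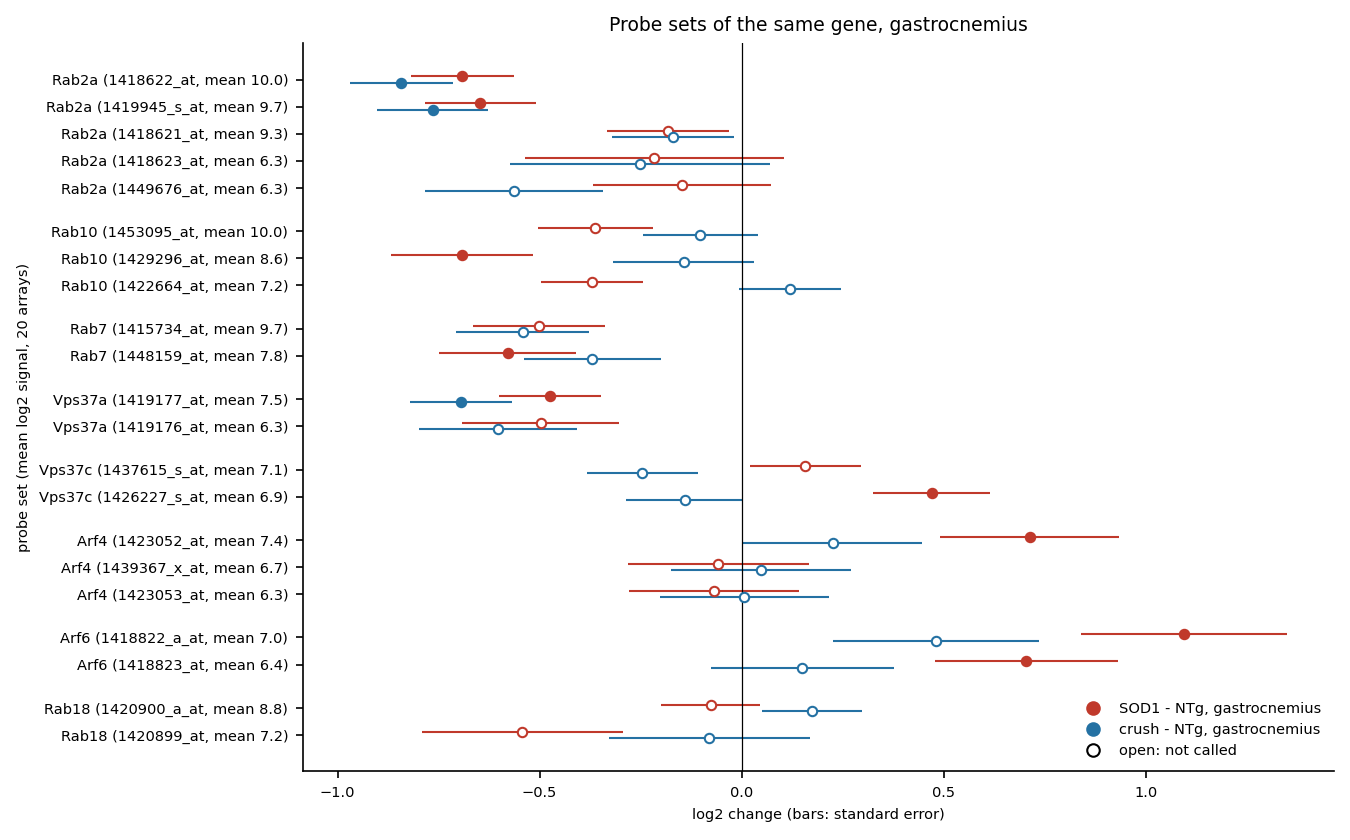
Log2 change with its standard error (bars) of every tested probe set of 8 genes, for SOD1 and crush against NTg gastrocnemius. These genes had several tested probe sets and a call in the fit on all 20 arrays, for Rab18 only between the NTg muscles. The y axis gives each probe set with its mean log2 signal. The Rab2a probe sets range from -0.69 to -0.15 in SOD1 gastrocnemius, and the Arf4 probe sets from -0.07 to 0.71.

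Between the muscles of NTg mice 1 of 130 members was called (0.769%, against 1.71% of all tested probe sets, or 1.52% counting those higher in gastrocnemius), and 8 did not overlap (6.15%, against 10.3%). The called member was Rab18, a Rab of the ER and of lipid droplets, on its dimmer probe set (1420899_at). Gastrocnemius read 7.95, 7.49, 7.82 and 7.59 and triceps 7.60, 6.10, 5.95 and 6.56, with NTg triceps replicate 1 inside the gastrocnemius range (log2 difference 1.16, SE 0.25, limma adjusted p = 0.0221). SOD1 gastrocnemius read 7.56, 7.16, 6.97 and 6.99, SOD1 triceps 6.97, 7.08, 6.77 and 6.65, and the crush arrays 7.88, 7.55, 7.53 and 7.57. The brighter Rab18 probe set gave 0.22 (adjusted p = 0.455). The call held in 2 of 8 fits without 1 array and was lost without NTg gastrocnemius replicates 1, 3 or 4 or NTg triceps replicates 2, 3 or 4, with adjusted p up to 0.106. Without NTg triceps replicate 1, 7 members were called (5.38%, against 4.35% of all), Rab18 and 1 probe set each of Arl2bp, Rab28, Sec61a2, Arf1, Vps50 and Rab14, all higher in gastrocnemius. By the brightest probe set per gene the largest differences were those of Snx4 (0.50, adjusted p = 0.192) and Rab3ip (0.44, adjusted p = 0.350). Markers of other cells and of fibre type differed between these muscles. Schwann cell markers summed to 1090 to 1496 in gastrocnemius and 436 to 493 in triceps, with 1 of 3 tested higher in gastrocnemius. Macrophage markers summed to 839 to 1095 in gastrocnemius and 1122 to 1751 in triceps, with 1 of 9 tested lower in gastrocnemius (C1qb, log2 difference -0.73). Of 12 fibre markers, Myh7 and Tnni1 of slow fibres were higher in gastrocnemius (6.16 and 5.62 on the log2 scale). Their part in the traffic genes' differences was not tested.

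Other genes of the same routes, taken from lists by function, were called in small numbers. In SOD1 gastrocnemius 7 of 131 tested genes were called (5.34%) and after crush 8 (6.11%), against 12% and 4.13% of all tested probe sets; whether these shares differ was not tested. Of 20 tested clathrin coat and adaptor genes, 1 rose and 1 fell in SOD1 gastrocnemius: Gga2, an adaptor of the trans-Golgi (0.48, limma adjusted p = 0.0279), and Ap4s1, a subunit of the AP-4 adaptor (-0.63, adjusted p = 0.00912). Of 25 ER exit genes, 1 fell, Sar1b, the GTPase that starts COPII assembly (-0.85, adjusted p = 0.0171), and of 11 regulators and effectors of Arfs 1 fell, Arfgef1, an Arf exchange factor (-0.58, adjusted p = 0.0359). Of 27 SNAREs and fusion factors, 1 rose, Napb, a cofactor of SNARE disassembly (0.73, adjusted p = 0.0415). Of 18 factors that load, activate or inactivate Rabs, or bind them, 1 fell, Rilpl1 (-0.83, adjusted p = 0.0146), and of 16 further ESCRT genes 1 fell, Ubap1, an ESCRT-I subunit (-0.53, adjusted p = 0.0112). None of 14 TRAPP, COG and exocyst genes was called. The medians of these lists lay between -0.06 and 0.17 in SOD1 gastrocnemius. After crush, Ubap1 (-0.50, adjusted p = 0.0255), Arfgef1 (-0.68, adjusted p = 0.0324), Arfgap2, Cltb, Ergic2 and Exoc7 fell and Bcap29 and Trappc5 rose. In triceps none of these genes was called.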

How the data were processed

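The authors deposited log2 signals of 10748 probe sets. The submitters' processing notes name MAS5; no version, target level or filter is given in the sources used here. Per the labels' protocols, RNA was extracted with Trizol and purified on columns. No scaling was added. MAS5 signals have no floor and no detection calls were used, so differences of dim probe sets are uncertain, and 4 arrays per group limit the precision.

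Probe sets whose mean lay in the lowest 30% (under 5.88) were left out, leaving 7523. All 171 member probe sets matched the mouse RefSeq table (GRCm38.p6) by gene ID. Group means of the 5 groups were estimated together from the 20 arrays in limma 3.58.1 (R 4.3.3, eBayes with a trend, 15 residual degrees of freedom), with Benjamini-Hochberg adjustment within each of 6 comparisons. P-values set a difference of group means against the spread of arrays within groups, estimated over all 5 groups together. A gene was represented by its brightest member probe set. Named were the largest called changes per comparison, or the largest changes where few or none were called, and the member with the smallest adjusted p of each role. Other probe sets were named where they disagreed. The members and lists were chosen with earlier results of these data known. The fit was tested on simulated data.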

Additional observations from a re-analysis of the deposited data

Results flagged for a closer look

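For the 15 probe sets whose values are given array by array, 75 groups of 4 were searched for an array far from the others of its group, by the gap to the nearest array over the group's range (Dixon's test). This marked 6 arrays, where chance alone, at about 1 in 20 groups, would mark 3.75. On the called Arf4 probe set, replicate 1 of NTg gastrocnemius read 7.32, above the other arrays of its group, and replicate 1 of SOD1 gastrocnemius read 7.19, below the others of its own. On the dimmer Rab18 probe set, crush replicate 1 read 7.88, above the other crush arrays. On the brighter Rab7 probe set, NTg gastrocnemius replicate 3 read 10.27, above its group, and crush replicate 4 read 9.11, below its group. On the called Rab7 probe set, SOD1 triceps replicate 4 read 7.65, below its group.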

How the results depend on the processing

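For the members named by rule, 610 of 712 values under alternatives kept their direction and their side of the threshold, 53 lost a call, 49 gained one and 0 reversed. Many of these members had no call to lose in the main fit, and an uncalled value that stayed uncalled counts among the 610. SOD1 against NTg gastrocnemius gave 35 called members in a fit on the compared arrays only (26.9%, against 23.5% of all tested probe sets) and 53 with array weights (40.8%, against 33.4%), against 15, and 3 to 26 with 1 array left out. Array weights also gave 19 after crush (14.6%, against 16.5%), 16 for SOD1 against crush (12.3%, against 17%), 2 for the difference between muscles (1.54%, against 0.239%) and 4 for NTg gastrocnemius against triceps (3.08%, against 4.79%). The latter comparison gave 2 after subtraction of the 75th percentile (1.54%, against 1.99%), 2 without the filter (1.17%, against 1.73%) and 0 on the compared arrays only (0%, against 1.54%). In SOD1 gastrocnemius, subtraction of the 75th percentile gave 20 called members (15.4%, against 12.8%). With the lowest 60% of probe sets left out, 15 of 66 members were called there (22.7%, against 16.6%) and 6 of 66 after crush (9.09%, against 7.19%). With 1 array left out the counts ran from 0 to 1 in triceps, 4 to 7 after crush, 0 to 9 for SOD1 against crush, 0 to 4 for the difference between muscles and 0 to 7 between NTg muscles. At the highest counts the shares were 0.769% against 0.279% to 2.22% of all tested probe sets in triceps and 5.38% against 5.25% after crush. They were 6.92% against 8.03% for SOD1 against crush, 3.08% against 0.452% for the difference between muscles and 5.38% against 4.35% between NTg muscles. Replicate numbers were not used as pairs, since no label ties them to mice and no pair of groups had every same-numbered correlation of deviations over 0.1. These ran from -0.17 to 0.03 between SOD1 and NTg gastrocnemius, from 0.04 to 0.16 between SOD1 and NTg triceps, from -0.13 to 0.08 between crush and NTg gastrocnemius, from 0.05 to 0.45 between SOD1 and crush gastrocnemius, from -0.09 to 0.24 between NTg muscles and from -0.10 to 0.62 between SOD1 muscles. Between SOD1 muscles replicates 1 (0.57) and 4 (0.62) correlated best with their own number, and replicates 2 and 3 did not. A replicate block gave 26 called members in SOD1 gastrocnemius (20%, against 17.4%) and 3 in triceps (2.31%, against 1.38%; Rab5a, Copz2 and Arf6, adjusted p = 0.0409, 0.0346 and 0.0398) and moved no other count by more than 1.5 times. The cause of these shifts was not tested. Signal over background limits dim members, as no detection calls were used.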

Other observations

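Some members lay under the filter on dim signals and are given here after their values were seen. In a fit without the filter, the dimmer probe set of Rab31, a Rab of endosome and trans-Golgi traffic, was higher in SOD1 than in NTg gastrocnemius. The log2 change was 1.55 (SE 0.37, limma adjusted p = 0.0172), at a mean log2 signal of 4.96 over all arrays. The brighter Rab31 probe set, at a mean of 5.24, was not called. Sec61a1, the main alpha subunit of the Sec61 channel, was 0.91 higher on its brighter probe set (SE 0.25, adjusted p = 0.0290). Its dimmer probe set was not called. A dim Sec62 probe set was lower (log2 change -0.84, adjusted p = 0.0434). Between NTg gastrocnemius and triceps a dim Vps35 probe set differed by 1.71 (adjusted p = 0.0313), whereas the bright Vps35 probe set differed by 0.04.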
